A study of Mus musculus with 6 samples.

Results

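The genes described here encode mitochondrial ribosomal proteins. They were taken from the count table by name alone: every symbol made of Mrpl or Mrps, digits and at most 1 letter. This gave 77 genes of 24421 symbols, 48 named for the large subunit (Mrpl) and 29 for the small subunit (Mrps), and all 77 had enough counts to be tested, among 11801 tested genes in all. Mitoribosome proteins that carry other names, such as Dap3, are outside it and are given further on.

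The mitochondrial ribosome translates the few messenger RNAs encoded by mitochondrial DNA, all of which are for subunits of the respiratory chain and of ATP synthase. Its ribosomal RNAs come from mitochondrial DNA, whereas its proteins are made from nuclear genes in the cytosol and imported. Some of these proteins have bacterial counterparts and others occur only in mitochondria. In muscle, where contraction draws heavily on oxidative phosphorylation, this ribosome is needed to build and renew the respiratory chain.

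RNA was sequenced from C2C12 cells, an established line of mouse myoblasts, after they were turned into myotubes. The study is about glycophagy, by which lysosomes take up and break down glycogen, and the comparison asks how myotube RNA differs when Gaa is targeted. The shGAA group (3 libraries) received a lentivirus carrying a short hairpin RNA named for Gaa, and the shScrambled control group (3 libraries) received one with a scrambled hairpin. Both groups carried a virus, were selected with puromycin, were grown before differentiation with 10% FBS and were differentiated in 2% horse serum with 4.5 g/l glucose and glutamine, and the titles of both contain the word Fed, which the labels leave unexplained. How many hairpins were used, and whether the libraries of a group are separate infections or cultures, is not stated, so any p-value here speaks only for library-to-library spread, part or all of which could be technical.

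The check of the labels held: Gaa, which encodes lysosomal acid alpha-glucosidase, had 469, 445 and 552 counts in the shGAA libraries and 1033, 1158 and 1119 in the shScrambled libraries. By edgeR's test it fell by 1.25 on the log2 scale (SE 0.07, 3 libraries a group, edgeR quasi-likelihood test with Benjamini-Hochberg adjustment, adjusted p = 1.09e-09). Libraries held 9224038 to 10430270 counts, and the 77 genes took 0.284 to 0.294% of them in shGAA and 0.302 to 0.306% in shScrambled. Among the controls, replicate 1 stood apart from the other 2 libraries: the chi-square per degree of freedom was 6.08 against replicate 2 and 5.49 against replicate 3, compared with 1.98 to 2.62 for every other pair within a group. For the mitoribosome genes, that library differed from the other controls by a median log2 difference of 0.04 over the large subunit and 0.03 over the small. The differences between the groups were small too. The median log2 fold change, shGAA over shScrambled, was -0.119 for the large subunit and -0.0969 for the small with all libraries. Without shScrambled replicate 1 these medians were -0.0975 and -0.0562.

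Muscle and proliferation markers moved alongside. Of 12 tested genes of differentiated muscle, 9 were lower in shGAA and none higher, beside 19.7% lower and 18.5% higher of all tested genes. The summed level of the list was 2345 to 2565 CPM (counts per 1000000, after TMM scaling of the libraries) against 3094 to 3464 in shScrambled. Replicate 1 was the control farthest out for this list. Its median log2 deviation from the mean of each gene was 0.63, against 0.13 and 0.16 in shScrambled replicates 2 and 3. Of 20 cell cycle genes, 19 were lower, with sums of 1886 to 2053 against 2485 to 2802 CPM. The 3 markers of undifferentiated myoblasts summed to 132 to 143 against 114 to 117 CPM. Of these, Myf5 rose (mean of 64.4 against 45.2 CPM), Myod1 did not pass (71.1 against 69.2 CPM) and Pax7 had too few counts to be tested. Fibroblast markers summed to 445 to 471 against 639 to 803 CPM, nearly all of it Ly6a. Of 4 tested fibroblast markers, Ly6a fell (log2 fold change -0.67 ± 0.07, SE). Pdgfra (0.28 ± 0.18), Dpt (0.11 ± 0.33) and Col15a1 (0.44 ± 0.39) had values above 0 and did not pass. Adipocyte markers summed to at most 0.54 CPM (Plin1, Cidec, Lep and Cfd at 0), leukocyte markers to at most 3.10 CPM (Cd3e at 0) and endothelial markers to at most 5.23 CPM (Cldn5 at 0). In bulk RNA, fewer cells of a type and less RNA per cell cannot be told apart. The part that the shift in muscle and cell cycle markers and in Myf5 has in the results below was not tested.

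A minority of the mitoribosome genes were lower in the shGAA libraries, by small amounts. At an adjusted p under 0.05, 21 of 77 fell, none rose and 56 did not pass. Over all tested genes the test called 38.2%, with 19.7% lower and 18.5% higher, and 15 of 48 large-subunit genes (31.2%) and 6 of 29 small-subunit genes (20.7%) fell, the latter a share close to the background. The large-subunit share depended on the processing: with DESeq2 it was 12.5%, against 14.8% of all genes with a p, and with scaling by library size 14.6%, against 15.9%. DESeq2 called 8 members lower and none higher, limma-voom 21 and none, and scaling by library size 11 and 2. The length and GC correction gave 15 lower and 2 higher, and the fit without shScrambled replicate 1 gave 20 and 1. At an unadjusted p under 0.05 the edgeR test had 2 members higher and 26 lower. The changes were small: the median log2 fold change was -0.12 for the large subunit and -0.10 for the small, beside 0.01 for all tested genes, and 37 of 48 and 20 of 29 values were below 0. Groups did not overlap, with every shGAA library lower, for 21 large-subunit and 11 small-subunit genes, against 24.9% of all tested genes, and with every shGAA library higher for 2 small-subunit genes, against 24.7%. Genes of like abundance give a closer background: of the 4757 tested genes between 14.9 and 66.0 CPM, 17.5% were lower and 19.97% higher, with a median of 0.02.

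Summed over its members, each subunit was lower in shGAA. The large-subunit sum was 1960, 1935 and 1873 CPM in the shGAA libraries and 2126, 2119 and 2095 CPM in the shScrambled libraries, or 1923 ± 44.9 against 2113 ± 16.3 (SD, n = 3 each). That left 91.0% of the control level, and the highest shGAA library was below the lowest control. The small-subunit sum was 945, 913 and 914 CPM in shGAA and 996, 983 and 962 CPM in shScrambled, or 924 ± 18.3 against 980 ± 17.2, which is 94.3% of the control level. The gap between the groups was narrow here, and when libraries were scaled by total counts alone the small-subunit sums overlapped (955 CPM in the highest shGAA library, 951 CPM in the lowest control), whereas the large-subunit sums stayed apart (1911 to 1981 against 2071 to 2086 CPM). With genes sorted by symbol, the sum of the large subunit over that of the small was 2.08 ± 0.0358 in shGAA and 2.16 ± 0.0218 in shScrambled (SD, n = 3 each). The groups did not overlap in this ratio, and no test was made of it. With genes sorted by their place in the ribosome, given further on, the ratios overlapped. The ratio was then higher in shGAA replicate 2 (2012 over 819 CPM) than in shScrambled replicate 1 (2206 over 901 CPM).

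**Figure D1:**
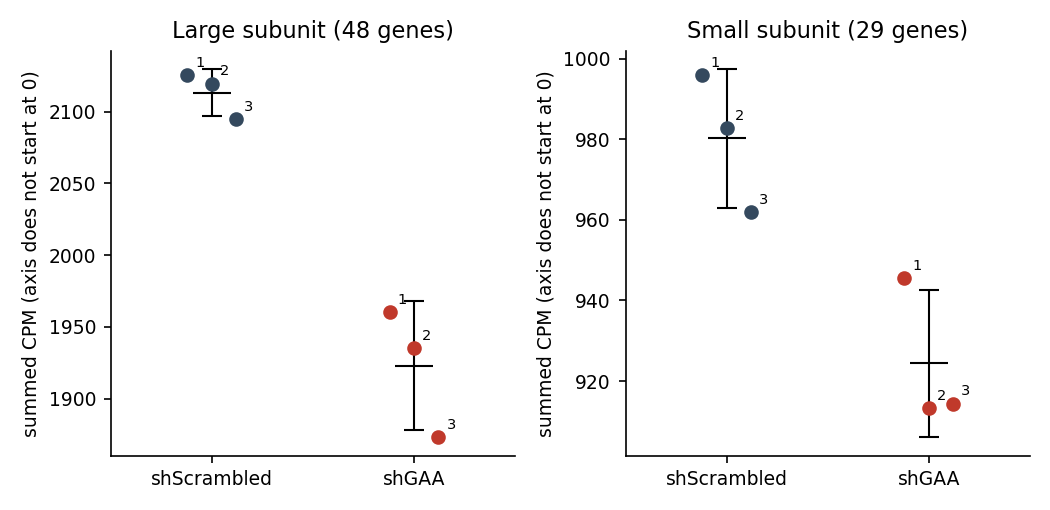
Summed CPM of the 48 large-subunit genes (left) and the 29 small-subunit genes (right) in each library, with the group mean and SD as bars. The vertical axes do not start at 0. The large-subunit sums lie between 1873 and 1960 CPM in shGAA and between 2095 and 2126 CPM in shScrambled, and the small-subunit groups are separated by a narrower gap.

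Single members ranged from a log2 fold change of -0.68 (Mrpl36) to 0.26 (Mrps11). Among large-subunit genes, the 15 that fell spanned -0.68 to -0.18, and the 33 that did not pass spanned -0.32 to 0.10. Among small-subunit genes, the 6 that fell spanned -0.38 to -0.17 and the 23 others -0.20 to 0.26. Standard errors of the members were between 0.06 and 0.14. The median SE was 0.076 in the large subunit, beside a median change of -0.12, and 0.084 in the small, beside -0.10. A difference near either median was not detectable for a single gene at this depth, where members had between 86 and 1033 counts per library.

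**Figure D2:**
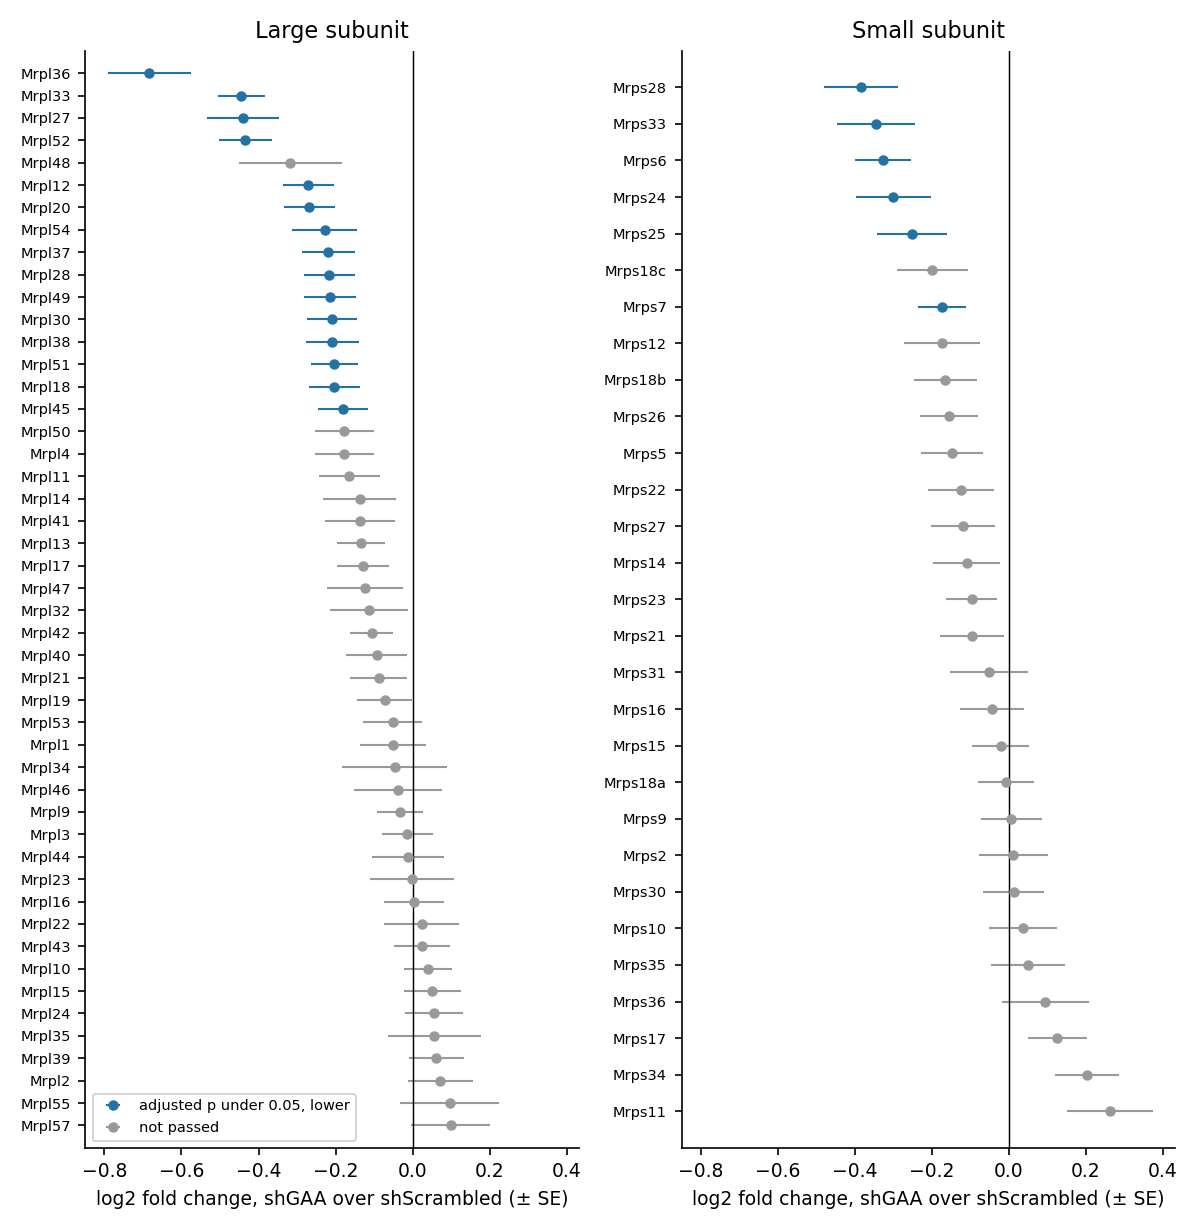
Log2 fold change, shGAA over shScrambled, of each large-subunit gene (left) and small-subunit gene (right), with the SE as a horizontal bar; blue points fell at an adjusted p under 0.05 and grey points did not pass. Most points of both subunits lie left of 0, with Mrpl36 farthest out at -0.68 and Mrps11 and Mrps34 at the right end of the small subunit.

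Mrpl36 showed the largest difference. This gene, whose product is a small protein with a bacterial counterpart, was at 18.4, 15.9 and 14.0 CPM in the shGAA libraries and at 24.8, 26.6 and 26.0 CPM in the shScrambled libraries. The groups were well apart, with 62.3% of the control level left and a log2 fold change of -0.68 ± 0.11 (SE, edgeR adjusted p = 9.87e-05). It rests on 149 to 180 per shGAA library and on 241 to 248 per control library. Mrpl33, another short protein of bacterial ancestry, was at 57.1, 55.1 and 53.2 CPM in shGAA and at 76.2, 71.8 and 77.0 CPM in shScrambled. All 3 shGAA libraries were below all controls, the log2 fold change was -0.45 ± 0.06, and its adjusted p of 2.52e-05 was the smallest among the members.

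Mrpl27, the counterpart of a bacterial protein that reaches toward the peptidyl transferase centre, was at 23.2, 21.2 and 21.9 CPM in shGAA and at 30.6, 32.2 and 27.2 CPM in shScrambled, a log2 fold change of -0.44 ± 0.09 (adjusted p = 0.00124). The groups did not overlap, but 35.4% of the 50-base stretches of the Mrpl27 transcript also occur in other genes, mostly in the processed copy Gm6304 (29.3%), so its reads may have been split or dropped in counting. Mrpl52, a protein found only in mitochondrial ribosomes, was at 38.7, 35.7 and 36.7 CPM in shGAA and at 49.2, 49.1 and 52.0 CPM in shScrambled (-0.43 ± 0.07, adjusted p = 0.000111). Each group was tight, with an SD under 2 CPM.

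Mrpl12 forms the stalk that contacts translation factors, and it has been described as a partner of the mitochondrial RNA polymerase. Its level was 85.5, 86.7 and 74.4 CPM in shGAA and 104, 101 and 93.1 CPM in shScrambled (-0.27 ± 0.07, adjusted p = 0.00374). Replicate 3 was the lowest library of its group on both sides, and the groups did not overlap. Of the other 2 stalk proteins among the members, Mrpl10 and Mrpl11, neither passed. Mrpl20, a core protein with a bacterial counterpart, was at 53.0, 53.5 and 50.8 CPM in shGAA and at 64.4, 66.2 and 58.8 CPM in shScrambled, a log2 fold change of -0.27 ± 0.07 (adjusted p = 0.0039).

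The remaining large-subunit genes that fell did so by 0.18 to 0.23 on the log2 scale, and none of them had overlapping groups. In the central protuberance, the part of the large subunit that faces the small subunit's head, Mrpl18 (-0.20 ± 0.07) and Mrpl38 (-0.21 ± 0.07) fell. That was 2 of 5 genes, beside 19.7% lower among all tested genes. The other 3 genes of that region did not pass: the groups did not overlap for Mrpl48 (-0.32 ± 0.13, adjusted p = 0.0717) and overlapped for Mrpl40 and Mrpl46. Mrpl45, which lies at the exit of the nascent chain and tethers the ribosome to the inner membrane, was at 53.1, 51.1 and 51.5 CPM in shGAA and 62.0, 57.7 and 56.9 CPM in shScrambled (-0.18 ± 0.06, adjusted p = 0.0341). It was the 1 of 6 genes of the exit tunnel region that fell, a count too small to set against the 19.7% of all tested genes. Mrpl44, beside Mrpl45, was at 99.2% of the control level (-0.01 ± 0.09). Mrpl28 (-0.22) and Mrpl30 (-0.21), with bacterial counterparts, and Mrpl37 (-0.22), Mrpl49 (-0.22), Mrpl51 (-0.20) and Mrpl54 (-0.23), specific to mitochondria, made up the rest. Mrpl3, a core protein with known mutations in human mitochondrial disease, was level between groups, at 45.2, 45.3 and 45.7 CPM in shGAA and 45.3, 45.7 and 46.4 CPM in shScrambled.

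In the small subunit, Mrps28 fell most, from 24.6, 26.2 and 23.7 CPM in shScrambled to 17.9, 19.8 and 19.4 CPM in shGAA (-0.38 ± 0.10, adjusted p = 0.00444). Mrps6, with a bacterial counterpart, was at 38.004, 36.4 and 36.7 CPM in shGAA and at 43.6, 49.6 and 46.3 CPM in shScrambled (-0.33 ± 0.07, adjusted p = 0.00197). Both genes had all shGAA libraries below all controls. Exons of Slc5a3 on the same strand cover 18.8% of the Mrps6 transcript, and how reads there were counted is not known. Mrps33, specific to mitochondria, was at 18.1, 16.9 and 17.2 CPM against 24.04, 20.9 and 21.2 CPM (-0.35 ± 0.10, adjusted p = 0.0122), and 20.98% of its 50-base stretches are shared with the copy Gm5776. Its call was lost with DESeq2.

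Mrps24, Mrps7 and Mrps25 were the other 3 that fell. Mrps24, whose product has a bacterial counterpart, was at 26.7, 23.9 and 22.5 CPM in shGAA and 26.9, 30.9 and 32.0 CPM in shScrambled, with the replicate 1 libraries of the groups close together (-0.30 ± 0.10, adjusted p = 0.0214). Mrps7, a protein of the head of the subunit, fell by 0.17 on the log2 scale (SE 0.06, adjusted p = 0.0353). Mrps25 was at 27.9, 26.7 and 31.3 CPM in shGAA and 34.7, 36.7 and 31.0 CPM in shScrambled, and it was the 1 member that fell with overlapping groups (-0.25 ± 0.09, adjusted p = 0.0367). Exons of Nr2c2 on the opposite strand cover 75.6% of the Mrps25 transcript, and without knowledge of strand in the counting the 2 genes cannot be told apart there; Nr2c2 itself had a log2 fold change of 0.16 ± 0.06 and did not pass.

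Mrps11 and Mrps34 were the 2 members with every shGAA library above every control. Mrps11, a platform protein of bacterial ancestry, was at 21.4, 17.5 and 19.1 CPM in shGAA and at 17.5, 15.8 and 15.1 CPM in shScrambled (0.26 ± 0.11, adjusted p = 0.0732). Mrps34, specific to mitochondria, was at 34.5, 36.1 and 32.6 CPM in shGAA and at 27.5, 30.9 and 31.2 CPM in shScrambled (0.20 ± 0.08, adjusted p = 0.0639). Neither passed, though both did when libraries were scaled by total counts alone (edgeR adjusted p = 0.0352 and 0.0246). Both also passed with a correction for the merged exon length of each gene and GC content (0.0367 and 0.0198). Mapk8ip3 overlaps 62.7% of the Mrps34 transcript and was level between groups (-0.02 ± 0.06). Both genes were singled out after their values were seen.

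The 3 Mrps18 paralogs, which share one bacterial counterpart and sit at different places in the ribosome, did not pass. Mrps18c was at 26.1, 26.0 and 24.3 CPM in shGAA and 27.9, 27.2 and 32.6 CPM in shScrambled (-0.20 ± 0.09, adjusted p = 0.1), Mrps18b had a log2 fold change of -0.16 ± 0.08, and Mrps18a, which is built into the large subunit, one of -0.01 ± 0.07. Mrps30, also part of the large subunit despite its name, had 0.01 ± 0.08. Mrps36, since shown to belong to the alpha-ketoglutarate dehydrogenase complex, had 0.09 ± 0.11. Mrps12, of the decoding centre, was at 88.7% of the control level with overlapping groups (-0.17 ± 0.10, adjusted p = 0.175), and Mrps22, mutated in a human cardiomyopathy and tubulopathy syndrome, at 91.8% (-0.12 ± 0.09, adjusted p = 0.276). Counting genes by their place in the ribosome, with Mrps18a and Mrps30 in the large subunit and Mrps36 left out, gave 15 of 50 and 6 of 26 lower.

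Both classes of ancestry held genes that fell. Some members, Mrps28 among them, were placed in neither class, so the counts here do not add up to those of the subunits. Of the large-subunit genes, 8 of 29 with bacterial counterparts fell (median -0.11) and 7 of 18 specific to mitochondria fell (median -0.16). In the small subunit, the counts were 3 of 14 (median -0.07) and 2 of 10 (median -0.11), shares close to the 19.7% of all tested genes. With DESeq2 the 4 counts were 5, 1, 1 and 0. The difference between the classes was not tested.

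Of the 21 genes that fell, 8 also fell under all 14 alternative fits: Mrpl36, Mrpl33, Mrpl27, Mrpl52, Mrpl12, Mrpl20, Mrps28 and Mrps6. The other 13 calls were lost with DESeq2, and 6 of the 13 were lost in at least 7 of the 14 fits. Mrps7 kept its call in 4, Mrpl54 in 5, Mrpl18 and Mrpl45 in 6, and Mrpl38 and Mrps24 in 7. Without shGAA replicate 3 the count of large-subunit genes that fell was 8 in place of 15, and without shGAA replicate 2 or shScrambled replicate 2 the count for the small subunit was 3 in place of 6.

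**Figure D3:**
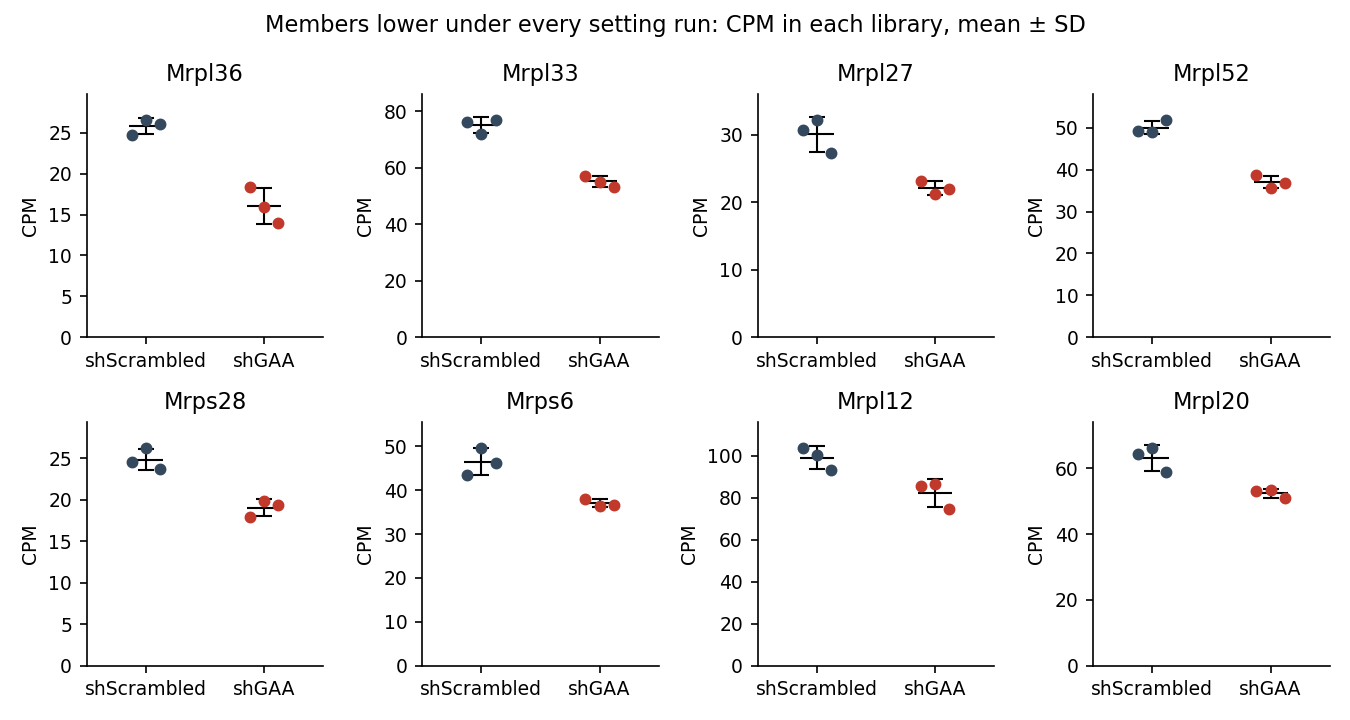
CPM in each library, with the group mean and SD, of the 8 genes that fell under all 14 alternative fits. Every axis starts at 0, and in each panel the 3 shGAA libraries are below the 3 shScrambled libraries.

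Many nuclear genes for mitochondrial proteins have CpG-rich promoters without a TATA box and with binding motifs for NRF1, ETS-family factors such as GABP, and YY1. The promoters below are of 6 of the 8 genes of the plot of CPM by library, 5 with such a motif near the start and Mrps6 with none in this window, to let the motifs be seen in place. The window of Mrpl20, not shown, has none of the 3 either. They run from 100 bases before to 30 bases after the annotated start, on the plus strand in all 6 cases, in GRCm38.p6 from RefSeq. The windows are chr13:73330909-73331038 for Mrpl36, chr5:31613851-31613980 for Mrpl33, chr11:94653691-94653820 for Mrpl27, chr14:54426809-54426938 for Mrpl52, chr11:120484537-120484666 for Mrpl12 and chr16:92058236-92058365 for Mrps6. The other 2 genes lie at chr4:155802878-155809975 (Mrpl20, plus strand) and chr3:8802146-8923918 (Mrps28, minus strand) in GENCODE M21. Capitals mark matches to the NRF1 motif (GCGCA and GCGC with any base N between), the ETS motif CCGGAAG and the YY1 motif AAGATGGC on either strand.
Mrpl36: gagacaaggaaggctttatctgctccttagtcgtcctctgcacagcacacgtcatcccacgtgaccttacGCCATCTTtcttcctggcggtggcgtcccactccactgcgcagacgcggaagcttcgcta
Mrpl33: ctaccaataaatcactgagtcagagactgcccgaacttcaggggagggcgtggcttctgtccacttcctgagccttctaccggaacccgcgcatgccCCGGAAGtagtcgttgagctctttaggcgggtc
Mrpl27: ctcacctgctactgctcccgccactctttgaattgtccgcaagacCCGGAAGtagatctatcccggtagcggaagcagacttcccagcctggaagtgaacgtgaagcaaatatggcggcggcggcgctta
Mrpl52: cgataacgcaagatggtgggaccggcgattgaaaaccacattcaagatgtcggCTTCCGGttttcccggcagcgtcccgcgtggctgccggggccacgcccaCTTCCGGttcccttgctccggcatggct
Mrpl12: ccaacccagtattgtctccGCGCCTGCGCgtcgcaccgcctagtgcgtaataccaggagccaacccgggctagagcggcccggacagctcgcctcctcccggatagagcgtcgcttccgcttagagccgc
Mrps6: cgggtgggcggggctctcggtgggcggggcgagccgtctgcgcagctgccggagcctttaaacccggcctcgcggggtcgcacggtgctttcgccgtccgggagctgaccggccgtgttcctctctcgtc
In these windows the match in Mrpl36 is to the YY1 motif, 30 bases before the start, and that in Mrpl12 to the NRF1 motif, 81 bases before it. Mrpl33 and Mrpl27 have an ETS match 3 and 55 bases before the start, and Mrpl52 has 2 ETS matches, both on the opposite strand.

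RefSeq windows of 250 bases before to 50 after a start were held for 68 of the 77 genes, 74 windows in all, and matches were counted on both strands. The ETS motif was in 33.8% of the members' windows against 11.6% of 21263 windows of protein-coding genes, the NRF1 motif in 17.6% against 6.38%, and the YY1 motif in 16.2% against 3.05%. The E-box CACGTG was in 9.46% against 7.84%, and the TATA box letters TATAAA were in 6.76% against 12.6%. Members' windows were richer in CpG, with a median of 21.5 CpG dinucleotides against 13, and a GC content of 58.5 against 56.3%. Among windows of genes that fell, 3 of 18 had NRF1, 6 ETS and 5 YY1 matches, and among windows of genes that did not pass, 10, 19 and 7 of 56. A match is a run of letters and not a measured site of binding.

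The regulators that read such motifs, and the coactivator PGC-1alpha that works with them, were measured in the same libraries. Of 12 regulators of mitochondrial biogenesis, 1 rose and 1 fell. Ppargc1a, which encodes PGC-1alpha, rose from 1.20 ± 0.624 to 4.42 ± 1.01 CPM (SD, n = 3 each), a log2 fold change of 1.88 ± 0.31 (edgeR adjusted p = 0.000158), at a low level in both groups. Nrf1 fell from 38.9 ± 1.73 to 33.3 ± 0.81 CPM (-0.22 ± 0.07, adjusted p = 0.0248), a call that DESeq2 did not make. Gabpa (0.06 ± 0.06) and Myc (-0.04 ± 0.08) did not pass.

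Most other genes of mitochondrial translation did not pass. Of 71 tested genes in 4 lists, 4 rose and 4 fell (5.63% each way, under the 18.5% and 19.7% of all tested genes), 63 did not pass, and the median was -0.03 on the log2 scale. Among 6 mitoribosome proteins with other names, Chchd1 of the small subunit fell (-0.34 ± 0.08, adjusted p = 0.00224), Gadd45gip1 of the large subunit rose (0.30 ± 0.07, adjusted p = 0.00432) and 4 did not pass, among them Ict1 (-0.15 ± 0.09), the peptidyl-tRNA hydrolase now named Mrpl58. Of 27 genes for assembly and ribosomal RNA modification, 2 fell and 3 rose. Ddx28, an RNA helicase of large-subunit assembly, fell by 0.49 on the log2 scale, and Malsu1, which guards the large subunit from joining too early, by 0.33. Rpusd3 (0.57 ± 0.17) and Trub2 (0.31 ± 0.09), both of the pseudouridine synthase family, and Ngrn (0.26 ± 0.09) rose. DESeq2 kept Ddx28 and Trub2 of these 5. Rpusd4, also of the pseudouridine synthase family, did not pass (-0.11 ± 0.12). None of 18 translation factors passed in edgeR, DESeq2 or limma-voom, and 2 were lower and none higher at an unadjusted p under 0.05 in edgeR. Of 20 genes for maintenance and transcription of mitochondrial DNA, Ssbp1, the single-stranded DNA-binding protein, fell (-0.23 ± 0.08, adjusted p = 0.0311), a call not made by DESeq2, and the RNA polymerase Polrmt (0.03 ± 0.07) and the DNA-packaging factor Tfam (0.04 ± 0.07) did not pass.

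In the edgeR test, 17.1% of complex I genes fell, 31.2% of the large and 20.7% of the small mitoribosomal subunit, and 86.7% of cytosolic ribosomal protein genes. Beside 19.7% of all tested genes, the shares of complex I and of the small subunit were close to the background. Of 35 tested genes for complex I subunits, 6 fell and 1 rose, and the summed levels overlapped between groups (2403 to 2570 against 2553 to 2650 CPM). Their median was -0.10 on the log2 scale, beside -0.12 for the large and -0.10 for the small mitoribosomal subunit. Of 75 tested genes for cytosolic ribosomal proteins, 65 fell and none rose, with a median of -0.30, and their sum was 81.4% of the control level, against 91.0% for the large and 94.3% for the small mitochondrial subunit. DESeq2 called 64 of the cytosolic genes lower and none higher, limma-voom 65 and none, and at an unadjusted p under 0.05 edgeR had 66 lower and none higher. For complex I, DESeq2 called 2 genes lower and 1 higher. For the 77 mitoribosome genes it called 8 lower and none higher, and of all genes with a p 14.8% lower and 12.5% higher. The difference between these lists was not tested.

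**Figure D4:**
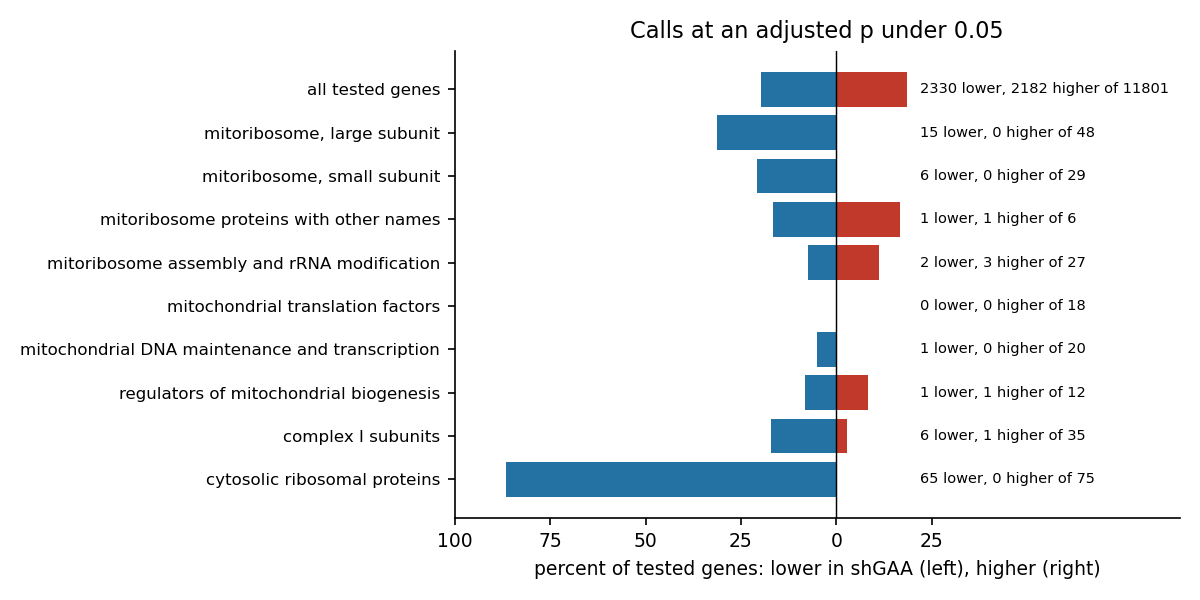
Percent of the tested genes of each list that were called lower (left, blue) and higher (right, red) in shGAA at an adjusted p under 0.05, with the counts written beside each bar. Cytosolic ribosomal proteins have 65 of 75 lower, the large mitochondrial subunit 15 of 48 and the small 6 of 29, and the translation factors have no call.

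Mitoribosome transcripts are short, and in these libraries short transcripts were lower in shGAA more often. The median transcript length was 1068 bases for the 21 genes that fell, 1310 for the 56 that did not pass, and 3023 over all tested genes. Under 1000 bases, 10 of 25 members fell (40.0%), beside 30.1% lower and 6.65% higher among all 692 tested genes of that length. Between 1000 and 2000 bases the counts were 8 of 29 members (27.6%) beside 21.9%, and from 2000 bases up 3 of 23 members (13.0%) beside 18.4%. The median log2 fold change of members was -0.14, -0.09 and -0.11 in the 3 classes, against -0.12, -0.04 and 0.03 for all tested genes. The length and GC correction used a different length, that of all annotated exons of a gene merged. For some members that is far longer than the transcript (7326 against 478 bases for Mrpl33), so it did not correct the trend above as such. With library offsets fitted to merged exon length and GC content, 15 members were lower and 2 higher, 13 of the 15 being among the 21. The medians were then -0.09 for the large and -0.05 for the small subunit.

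**Figure D5:**
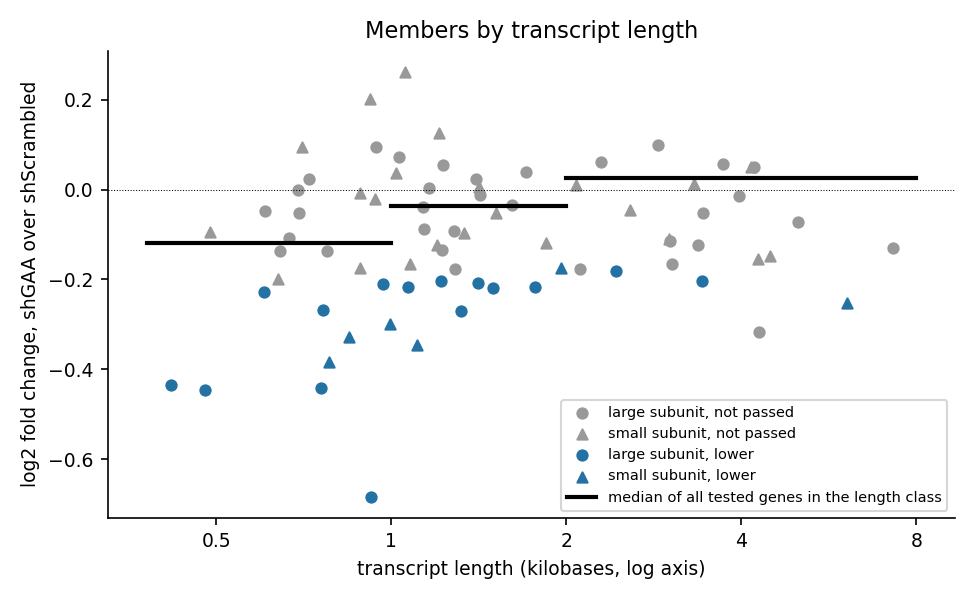
Log2 fold change of each member against the length of its transcript in kilobases (log axis), with circles for the large and triangles for the small subunit; blue points fell and grey points did not pass, and the black bars are the medians of all tested genes in 3 length classes. The points of genes that fell lie mostly below 2 kilobases, with Mrpl36 lowest, and 3 lie beyond it.

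Levels within the ribosome were uneven per unit of transcript length. On the scale of CPM per kilobase, averaged over the 6 libraries, large-subunit genes had a median of 30.7 and ran from 2.63 for Mrpl48 to 136 for Mrpl33, followed at the top by Mrpl42 at 114 and Mrpl52 at 104. Small-subunit genes had a median of 23.6 and ran from 5.17 for Mrps25 to 73.1 for Mrps21, with Mrps6 at 49.4 and Mrps18a at 47.4 next. In Mrpl33 the level was 115 ± 4.09 CPM per kilobase in shGAA and 157 ± 5.79 in shScrambled (SD, n = 3 each), and in Mrps21 it was 70.8 ± 1.53 and 75.5 ± 7.07. The order depends on which transcript gives the length, at both ends. With the shortest coding transcript Mrpl42 was highest in the large subunit at 167, above Mrpl33 at 136 and Mrpl20 at 131, and Mrps23 was highest in the small at 140.0, above Mrps21 at 88.1. Mrpl17, among the lowest at 6.49 with its 7300-base transcript, was at 46.1 with its shortest coding transcript, and Mrpl48 at 6.93. Mrpl35 (3.97), Mrps35 (5.98) and Mrps5 (7.27) kept their values with that choice, which was made after seeing the data. Neither Mrpl42 (-0.11 ± 0.06, adjusted p = 0.143) nor Mrps21 (-0.10 ± 0.08, adjusted p = 0.383) passed.

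Neighbours on the opposite strand with a nearby start were common. The start of another protein-coding gene of the table, on the opposite strand, lay within 1000 bases of the start of 24 of the 77 members (31.2%), upstream in 19 and inside the member in 5, against 8.80% of 20512 protein-coding genes. Of 24 members with such a neighbour 6 fell, and of the other 53, 15 fell. Over all tested genes, the background for these counts and for those of the neighbours, 19.7% were lower and 18.5% higher. Among 22 pairs with both genes tested, the neighbour fell in 7, rose in 2 and did not pass in 13, and both genes fell in 4 pairs. These were Mrpl18 with the chaperonin gene Tcp1 (-0.20 ± 0.07 and -0.23 ± 0.04), Mrpl27 with the endonuclease gene Eme1, whose start lies inside Mrpl27 (-0.44 ± 0.09 and -0.57 ± 0.18), Mrpl49 with Fau (-0.22 ± 0.07 and -0.29 ± 0.06), which encodes a cytosolic ribosomal protein, and Mrpl51 with the condensin gene Ncapd2 (-0.20 ± 0.06 and -0.48 ± 0.05). One pair joined 2 members: the starts of Mrpl46 and Mrps11 are 30 bases apart. The log2 fold changes of these 2 genes were -0.04 ± 0.11 and 0.26 ± 0.11. Whether members and their neighbours fell together more often than other genes was not tested.

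Shared or overlapping sequence touched a minority of members. In 7 of 77 genes, over 20% of 50-base stretches occur elsewhere, most in Mrpl23 (76.4%, all of it in Mrpl23-ps1), whose log2 fold change near 0 is therefore uncertain. In 6 genes, exons of another counted gene cover over 20% of the transcript. Leaving both kinds out gave 14 of 42 large-subunit genes and 4 of 22 small-subunit genes lower, and none higher.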

How the data were processed

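The deposited values are raw counts of reads per gene symbol in 6 libraries, made by the authors. Per the submitters' processing notes, tools included FastQC, HISAT2 2.1.0, Subread and edgeR, with genome build mm10; the gene annotation, strand setting and treatment of reads that map to several places are not given in any source used here. The members and lists were chosen with earlier results of these data known. From the counts, edgeR 4.0.16 (R 4.3.3; filterByExpr, TMM scaling, robust quasi-likelihood test) compared 3 shGAA with 3 shScrambled libraries, with Benjamini-Hochberg adjustment over 11801 tested genes and calls at an adjusted p under 0.05. CPM are counts per 1000000 after TMM scaling. Lists are described by counts and medians, without a set test. Precision is limited by 3 libraries per group and 9224038 to 10430270 counts each.

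Named genes are Gaa, 10 members fixed by role (Mrpl58 is listed under its older symbol Ict1), every member called, the 3 highest and 3 lowest of each subunit per kilobase, up to 4 called genes per pathway list and 6 regulators. Genes named outside this rule (Mrps11, Mrps34, Mrpl10, Mrpl11, Mrpl20 and Mrps23 per kilobase, Mrpl23, Mrpl40, Mrpl46, Ngrn, Rpusd4, Dap3, neighbours, overlapping genes and marker genes) were chosen after their values were seen. All 77 members matched GENCODE M21 (GRCm38), which gave lengths, GC content and shared stretches; promoters came from RefSeq (GRCm38.p6). Alternatives were scaling by library size, DESeq2 1.42.0, limma-voom (limma 3.58.1), no filter, a non-robust fit, the replicate number as a block, a length and GC correction (mgcv 1.9.3), and leaving out each library. On simulated data with 200 of 11801 genes changed, the edgeR test recovered 79% of genes changed 1.5-fold and 95% changed 2-fold, and 8.90% of its calls were on unchanged genes. Smaller changes, such as those of most members, were not simulated (the most changed member had a fold of 1.61). The real data also held far more calls, 38.2% of tested genes, so these shares may not carry over.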

Additional observations from a re-analysis of the deposited data

How the results depend on the processing

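The large-subunit count of genes that fell (15) became 7 with scaling by library size and 6 with DESeq2, and ranged from 8 to 14 when 1 library was left out. The small-subunit count (6) became 2 with DESeq2 and ranged from 3 to 6 without 1 library; its count of genes that rose (0) became 2 with scaling by library size, 2 with the length and GC correction and 2 with the replicate block and that correction, and ranged from 0 to 1 without 1 library. The large-subunit median (-0.12) was -0.0715 with scaling by library size, -0.0944 with the length and GC correction, -0.0938 with the block added to it, and -0.135 to -0.0935 without 1 library; the small-subunit median (-0.10) was -0.0496, -0.0523 and -0.0472 in these 3 settings and -0.120 to -0.0562 without 1 library. Among other genes of the pathway, the 4 that rose became 2 with DESeq2 and 2 to 6 without 1 library, and the 4 that fell became 2 with DESeq2, 8 with the length and GC correction and 2 to 6 without 1 library. The causes were not tested. Scaling by library size moved the share of higher genes among all calls from 48.4% (2182 higher, 2330 lower) to 60.0% (2809 higher, 1872 lower) and the median of all tested genes from 0.01 to 0.05. No member reversed direction with a call in either fit.

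Same-numbered libraries did not deviate together (correlations of -0.04, 0.05 and -0.01). The labels do not say whether the numbers pair the samples, and these correlations cannot decide it. With the replicate block, 15 large-subunit and 4 small-subunit genes fell and none rose, and 2037 genes rose and 2197 fell in all. With members at 86 to 1033 counts per library and 3 libraries per group, standard errors were 0.06 to 0.14, and single-gene changes near the subunit medians could not be resolved.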
